A study of Mus musculus with 6 samples.

Results

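Ribosome biogenesis begins in the nucleolus, where RNA polymerase I transcribes the large precursor of the 18S, 5.8S and 28S ribosomal RNAs. Small nucleolar ribonucleoproteins (snoRNPs) modify this precursor, those of the box C/D class by methylation and those of the box H/ACA class by pseudouridylation, and large sets of assembly factors then fold, cut and export the small and the large subunit. Making ribosomes costs a cell much of its energy, and in mammalian cells growth signalling through mTORC1 and Myc promotes it. The genes described here are 48 genes of this process, chosen by name: 8 of RNA polymerase I and its transcription factors, 4 of box C/D snoRNPs, 5 of box H/ACA snoRNPs and their assembly, 5 nucleolar proteins with several roles, 11 of small subunit assembly and 15 of large subunit assembly. Of these, 47 had a probe set that named a single gene, out of 12393 genes measured, and each was represented by its brightest probe set over all 6 arrays. Dkc1, the pseudouridine synthase of the box H/ACA particle, was not analysed here.

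The values are log2 levels from 6 Affymetrix mouse arrays of a cultured line called PPP3R1, which bears the name of the regulatory subunit of the phosphatase calcineurin. Nothing in the sources used here says how that gene was altered in the line, or whether the line is a single clone. Cells starved for 6 h (3 arrays) were compared with cells of the same line in normal medium (3 arrays, called control); the sources used here do not say what the starvation medium lacked. Titles and design agree on that control, but the culture notes name wild-type mouse embryonic fibroblasts instead, so a difference of cell line cannot be told apart from starvation if the notes are right. Whether the biological replicates were separate cultures is not stated, so p-values measure only the spread between these arrays.

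Fibroblast markers were high, with a median level of 12.7 over 11 measured genes (Col1a2 at 14.0 in control), although Thy1 was at 4.80 in control. Markers of leukocytes, epithelium, endothelium, nerve and muscle had median levels between 3.52 and 5.45, and 5 of 7, 4 of 6, 5 of 5, 3 of 6 and 2 of 6 of them lay under 5 in both groups. Cd14 was the brightest of these, at 8.34 in control. Some markers differed between the groups. Of the 30 measured for those other cell types 5 rose, namely Map2 (0.74), Acta1 (0.71), Cdh1 (0.50), Tubb3 (0.46) and Pecam1 (0.24), and Cd14 fell by 0.32, while their summed linear level per array was 1117 to 1201 in control and 1160 to 1220 in starved cells. Of the 11 fibroblast markers 5 rose and 3 fell, Pdgfrb by 0.81, and their summed linear level was 78829 to 80073 in control and 90451 to 93414 in starved cells. The part of these marker changes in the results was not tested. Across probe sets the correlation was 0.998 within groups and 0.986 to 0.988 between them. The 3 prime minus 5 prime signal of Gapdh, a sign of RNA integrity, averaged -0.05 in control and -0.13 in starved cells (exact permutation p = 0.10, two-sided, the smallest that 3 against 3 arrays allow); for Actb the means were 0.05 and 0.05 (exact permutation p = 0.70). The part of this small shift in the results was not tested.

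More of the ribosome biogenesis genes were lower than higher in starved cells, and the changes were mostly modest. Of the 47 measured, 21 fell, 10 rose and 16 did not pass an adjusted p of 0.05 in limma's test (Benjamini-Hochberg adjustment over 22626 probe sets). Over all 12393 genes 20.1% were called lower and 20.8% higher (40.8% either way), against 44.7% and 21.3% of these genes. The median difference, starved minus control, was -0.08 on the log2 scale, against -0.01 over all genes, and the single change of at least 1 was the fall of Rrs1. Because 41 of the 47 lay above the median level of all genes, and brighter genes are called more often, the shares were also taken among brighter genes alone. There 28.4% of 6196 genes were called lower and 31.6% higher, against 17 lower and 10 higher of the 41 (41.5% and 24.4%). In 38 of the 47 genes the control and starved arrays did not overlap, 24 of them lower and 14 higher in starved cells, against 52.5% of all genes. That share was not taken among brighter genes alone, so level may be part of the gap.

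**Figure D1:**
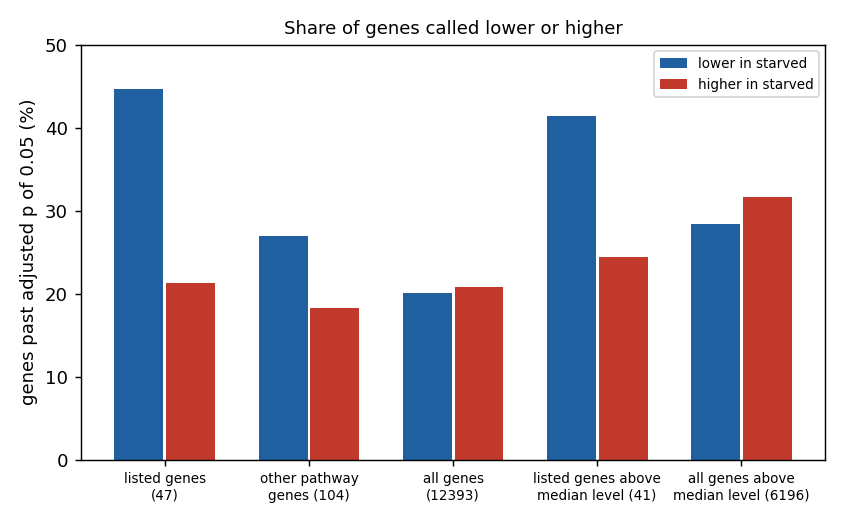
Percentage of genes past an adjusted p of 0.05 that were lower (blue) or higher (red) in starved cells, for the listed genes, other genes of the pathway and all genes, and again for genes above the median level. Among the 47 listed genes 44.7% were lower and 21.3% higher, whereas over all genes the shares were 20.1% and 20.8%.

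**Figure D2:**
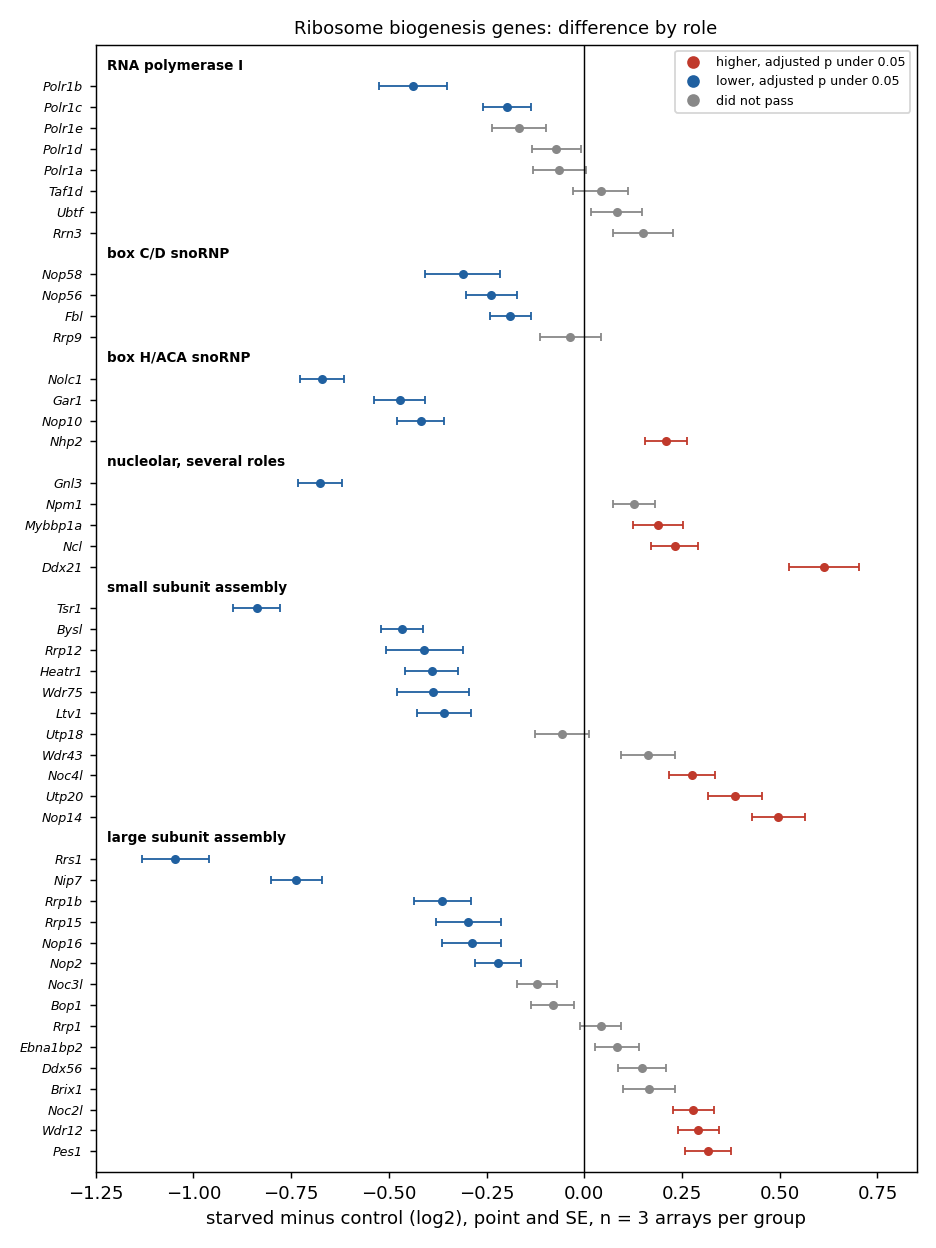
Difference of starved minus control (log2, with SE, n = 3 arrays per group) for each of the 47 genes, grouped by role. The differences run from -1.05 for Rrs1 to 0.61 for Ddx21, and every role except RNA polymerase I and box C/D snoRNPs holds genes called in both directions.

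Among genes of RNA polymerase I, 2 of 8 fell, none of the 8 rose and 6 did not pass, with a median difference of -0.07. The 25% that fell was near the 20.1% called lower over all genes, where 20.8% were called higher. For brighter genes the shares were 28.4% and 31.6%. Polr1b, which encodes the second largest subunit and part of the catalytic centre, was at 6.30, 6.23 and 6.29 on the control arrays and at 5.70, 5.77 and 6.03 on the starved arrays. All 3 starved arrays lay below all control arrays, and the fall of 0.44 ± 0.09 (SE, n = 3 per group; limma adjusted p = 0.00485) was 1.36-fold. Polr1c, whose protein is shared by RNA polymerases I and III, went from 9.29, 9.32 and 9.36 in control to 9.21, 9.08 and 9.08 in starved cells, a fall of 0.20 ± 0.06 (limma adjusted p = 0.0325). That small call did not survive the removal of any array other than starved replicate 1 (limma adjusted p from 0.0554 to 0.106), and it was lost in the mean of both probe sets of the gene (limma adjusted p = 0.0650).

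Polr1a, which encodes the largest subunit, was at 7.68, 7.55 and 7.75 in control and at 7.55, 7.62 and 7.61 in starved cells, with overlapping groups (-0.06 ± 0.07). Polr1d, which encodes another subunit shared with RNA polymerase III, was at 10.98, 10.91 and 11.08 in control and at 10.91, 10.92 and 10.92 in starved cells (-0.07 ± 0.06), and its second probe set stood at 0.11 ± 0.06. Neither subunit gene passed in either direction. Polr1e, which encodes a subunit specific to the enzyme, was dim at 5.89, 5.98 and 5.96 against 5.85, 5.83 and 5.66, -0.17 ± 0.07 without a call (limma adjusted p = 0.0967), while its other probe set fell by 0.22 ± 0.07 (limma adjusted p = 0.0368).

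Rrn3, the initiation factor that makes RNA polymerase I competent to start and through which mTOR signalling acts on it, was at 7.97, 7.99 and 8.17 in control and at 8.23, 8.08 and 8.26 in starved cells. Its groups overlapped, and the difference of 0.15 ± 0.08 did not pass (limma adjusted p = 0.171). Ubtf, which encodes the factor UBF that binds across ribosomal DNA, was at 9.52, 9.40 and 9.58 against 9.61, 9.53 and 9.61 (0.08 ± 0.07). Its dimmer probe set rose by 0.34 ± 0.10 (limma adjusted p = 0.0235), so the probe sets of this gene differ. Taf1d, a subunit of the promoter selectivity factor SL1, was level in its brightest probe set (8.03, 8.19 and 8.04 in control, 8.21, 8.05 and 8.13 in starved cells), while 2 of its 4 others rose, by 0.87 ± 0.09 and 0.69 ± 0.08. The brightest one can match several transcripts, and so can the one that rose by 0.87. Without such probe sets Taf1d was called higher (0.69, limma adjusted p = 0.000374). That call rests on a dim probe set, at 5.53 in control and 6.23 in starved cells. The 2 others then left did not pass (-0.004 and 0.16). In the mean of all its probe sets Taf1d was called higher too (0.35, limma adjusted p = 0.00515). The mean of both probe sets of Ubtf was also called higher (0.21, limma adjusted p = 0.0360), so the count of 0 rises among the 8 genes depends on the choice of the brightest probe set.

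Further polymerase I genes that were not among the 48 gave values on both sides. Polr1h, a small subunit of the enzyme that the annotation lists under the older symbol Znrd1, fell from 9.56, 9.51 and 9.66 to 9.16, 9.18 and 9.19 (-0.40 ± 0.06, limma adjusted p = 0.00106). Taf1b, another SL1 subunit, rose from 7.61, 7.72 and 7.74 to 8.38, 8.27 and 8.21 (0.60 ± 0.07, limma adjusted p = 0.000284). Both genes were separated between the groups on every array. Taf1a (0.20 ± 0.08), Taf1c (-0.15 ± 0.08), the termination factor gene Ttf1 (0.13 ± 0.10) and Tcof1 (-0.06 ± 0.06), whose product treacle promotes ribosomal RNA transcription, did not pass. Taf1a passed without control replicate 3 (limma adjusted p = 0.0144) and Taf1c without starved replicate 3 (limma adjusted p = 0.0296).

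The 3 core protein genes listed for the box C/D snoRNP fell together by small amounts. Of the 4 genes 3 fell and 1 did not pass, with a median difference of -0.21. That is 75% lower, against 20.1% over all genes and 28.4% among brighter genes, but of only 4 genes. Nop58, a core scaffold protein, was at 9.52, 9.84 and 9.85 in control and at 9.50, 9.35 and 9.42 in starved cells, so that control replicate 1 lay almost level with starved replicate 1 (-0.31 ± 0.10, limma adjusted p = 0.0342). Its partner Nop56 went from 8.83, 8.89 and 9.03 to 8.69, 8.65 and 8.70 (-0.24 ± 0.07, limma adjusted p = 0.0217). Fbl, which encodes the methyltransferase fibrillarin, went from 10.34, 10.34 and 10.37 to 10.12, 10.20 and 10.17 (-0.19 ± 0.05, limma adjusted p = 0.0235), and its second probe set fell by 0.20 ± 0.06. In all 3 genes the groups did not overlap, but each call depended on the number of arrays. For Nop58 it was lost without any array other than control replicate 1 (limma adjusted p from 0.0501 to 0.109), for Fbl without any array other than starved replicate 2 (0.0514 to 0.0732), and for Nop56 without control replicate 3 or any starved array (0.0514 to 0.0688). Rrp9, a protein of the U3 particle that acts in the first cuts of the precursor, overlapped between the groups (-0.04 ± 0.08).

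Of the 4 box H/ACA genes measured 3 fell and 1 rose, with a median difference of -0.45. These few genes give 75% lower and 25% higher, against 20.1% and 20.8% over all genes. Nolc1, which encodes the chaperone Nopp140 that carries snoRNPs through the nucleolus, was at 8.09, 8.13 and 8.12 in control and at 7.48, 7.37 and 7.48 in starved cells (-0.67 ± 0.06, limma adjusted p = 6.57e-05). The core protein gene Gar1 fell from 9.05, 8.99 and 9.06 to 8.60, 8.45 and 8.62 (-0.47 ± 0.06, limma adjusted p = 0.000737), and Nop10 from 11.32, 11.23 and 11.38 to 10.86, 10.91 and 10.90 (-0.42 ± 0.06, limma adjusted p = 0.000927). Each of the 3 genes was lower in all 3 starved arrays, and the other probe sets of Nolc1 and Nop10 fell too, by 0.39 to 1.12. Nhp2, the fourth core protein of the same particle, rose from 10.09, 10.10 and 10.16 to 10.28, 10.33 and 10.36 (0.21 ± 0.05, limma adjusted p = 0.0170). This call was lost without control replicate 1 or 2 or starved replicate 2 or 3 (limma adjusted p from 0.0521 to 0.0631), although the arrays did not overlap.

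Of the 5 nucleolar proteins with several roles 3 rose (Ncl, Mybbp1a and Ddx21), 1 fell (Gnl3) and 1 did not pass, with a median difference of 0.19. These few genes give 20% lower and 60% higher, against 20.1% and 20.8% over all genes. Among the rises, that of Ddx21 was opposed by its other probe set and that of Mybbp1a was lost in 10 of 17 alternative settings. Ncl, which encodes nucleolin, a chaperone of nascent ribosomal RNA, was at 12.05, 12.07 and 11.94 in control and at 12.23, 12.22 and 12.31 in starved cells (0.23 ± 0.06, limma adjusted p = 0.0175), and 2 of its 3 other probe sets rose as well; the call was lost without starved replicate 3 (limma adjusted p = 0.0651). Npm1, the gene of the histone and ribosome chaperone nucleophosmin and the brightest of all 47, was at 12.82, 12.90 and 12.86 against 13.01, 12.99 and 12.96. Its arrays did not overlap, yet the difference of 0.13 ± 0.05 did not pass (limma adjusted p = 0.0983). Mybbp1a, a nucleolar protein that binds Myb and takes part in ribosomal RNA processing, rose by 0.19 ± 0.06 (limma adjusted p = 0.0467), a call that held only on removal of starved replicate 1 among the 6 arrays (otherwise limma adjusted p from 0.0679 to 0.149). It was also lost after centring on array medians (limma adjusted p = 0.0602) or a second quantile normalization (0.0981).

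Gnl3 and Ddx21 moved furthest in this group, in opposite directions. Gnl3, which encodes the GTP-binding protein nucleostemin, fell from 9.39, 9.31 and 9.38 to 8.69, 8.63 and 8.74 (-0.68 ± 0.06, limma adjusted p = 6.49e-05, 1.60-fold). The gene Ddx21, an RNA helicase linked to both RNA polymerase I transcription and snoRNP function, rose from 6.98, 6.89 and 7.15 to 7.60, 7.51 and 7.75 (0.61 ± 0.09, limma adjusted p = 0.000959). The other probe set of Ddx21, at 7.42 in control, fell by 0.30 ± 0.07 (limma adjusted p = 0.0118), and in the mean of both the gene did not pass (0.16, limma adjusted p = 0.103). Ddx21 therefore has no settled direction.

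**Figure D3:**
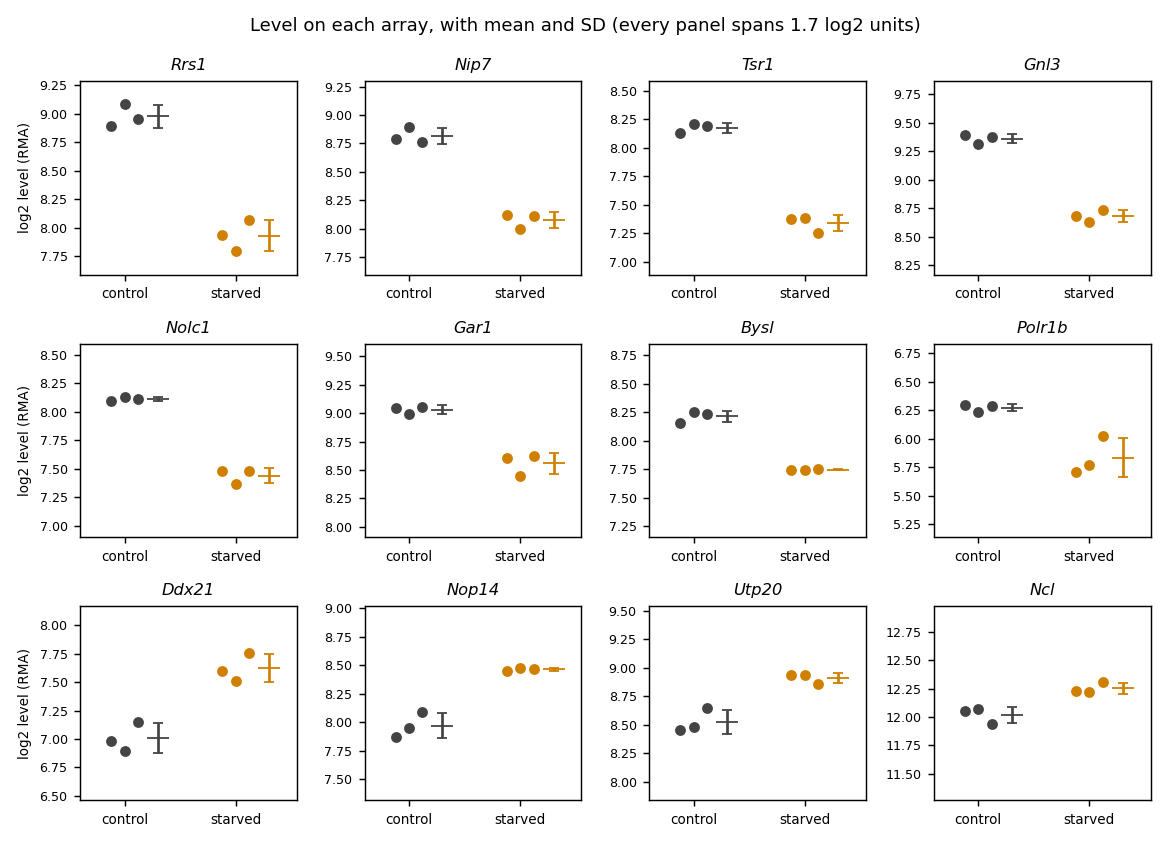
Log2 level of 12 of the genes on each array (points), with the mean and SD of each group beside them; every panel spans the same range of log2 units. The first 8 genes are lower on all starved arrays and the last 4 higher, with Rrs1 going from a mean of 8.98 to 7.93.

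Small subunit assembly factors split. Of 11 genes 6 fell, 3 rose and 2 did not pass, with a median difference of -0.36. That is 54.5% lower and 27.3% higher, against 20.1% and 20.8% over all genes and 28.4% and 31.6% among brighter genes. Those that fell included factors that ride on the late, cytoplasmic form of the subunit. Tsr1, which encodes a GTPase-like factor of the late pre-40S particle, went from 8.13, 8.21 and 8.19 in control to 7.37, 7.38 and 7.25 in starved cells (-0.84 ± 0.06, limma adjusted p = 3.15e-05, 1.79-fold). Bysl, the gene of the pre-40S factor bystin, went from 8.16, 8.25 and 8.24 to 7.75, 7.74 and 7.75 (-0.47 ± 0.05, limma adjusted p = 0.000317), and its dimmer probe set fell by 0.95 ± 0.15. Ltv1, a partner of the pre-40S particle during export, fell by 0.36 ± 0.07. The spread between arrays was small beside these falls.

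Heatr1 and Wdr75, whose proteins belong to the UTP-A complex that binds the nascent precursor and links it to transcription, fell by 0.39 ± 0.07 and 0.39 ± 0.09. Rrp12, a factor in the export of subunits, fell by 0.41 ± 0.10 from a dim level of 5.14 to 4.73, which is under the level of 5 used here as a limit for dim probe sets. Without moderation of the spread the calls of Wdr75 and Rrp12 were lost (adjusted p = 0.0629 and 0.0706 in the same linear model). The members that rose were Nop14, at 7.87, 7.94 and 8.09 in control and at 8.45, 8.48 and 8.46 in starved cells (0.50 ± 0.07, limma adjusted p = 0.000720), its binding partner Noc4l (0.28 ± 0.06) and Utp20 (0.39 ± 0.07). Nop14 and Noc4l form a subcomplex of the early small subunit precursor in yeast, and Utp20 is a large scaffold of the same precursor. Utp18 overlapped between the groups (-0.06 ± 0.07). Wdr43, a further UTP-A protein, differed by 0.16 ± 0.07 without passing while its second probe set fell by 0.37 ± 0.06; it passed without starved replicate 1 (0.22, limma adjusted p = 0.0477).

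Large subunit assembly held the largest change of the 47 genes. Of 15 genes 6 fell, 3 rose and 6 did not pass, with a median difference of -0.08. That is 40% lower and 20% higher, against 20.1% and 20.8% over all genes and 28.4% and 31.6% among brighter genes. Rrs1, which helps bring the 5S ribonucleoprotein into the early large subunit, was at 8.89, 9.08 and 8.96 in control and at 7.94, 7.79 and 8.06 in starved cells. The fall of 1.05 ± 0.09 was 2.06-fold (limma adjusted p = 5.68e-05), several times the spread within either group, and it rests on 1 probe set. Rpf2, its partner in that step and not among the 48, fell by 0.67 ± 0.06 (limma adjusted p = 6.96e-05), from 7.91, 8.02 and 7.92 to 7.27, 7.32 and 7.25. Its direction rests on a probe set that can match several transcripts: without such probe sets the difference was 0.02 (limma adjusted p = 0.857). Nip7, which takes part in processing the large subunit precursor, fell from 8.79, 8.90 and 8.76 to 8.13, 8.00 and 8.11 (-0.74 ± 0.06, limma adjusted p = 7.65e-05), and its second probe set fell by 0.57 ± 0.06.

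Rrp1b fell by 0.36 ± 0.07, from 6.86, 6.95 and 6.86 to 6.60, 6.39 and 6.60, whereas its paralogue Rrp1 overlapped between the groups at about 11 (0.04 ± 0.05). The 3 probe sets of Rrp1b gave differences of -0.36, -1.08 and 0.06, so the size of its fall is uncertain. Smaller falls were seen in Rrp15 (-0.30 ± 0.08), Nop16 (-0.29 ± 0.08) and Nop2, the gene of a methyltransferase of 28S ribosomal RNA (-0.22 ± 0.06). Each of these smaller calls was lost without certain arrays. Rrp15 lost it without control replicate 1 or 3 or starved replicate 2 (limma adjusted p from 0.0691 to 0.0742), Nop16 without control replicate 3 or starved replicate 2 (0.0533 and 0.0602), and Nop2 without control replicate 1 or 2 or starved replicate 2 or 3 (0.0568 to 0.0700).

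Bop1, Pes1 and Wdr12 encode the PeBoW complex, which is needed to process the precursor of the large subunit and to let cells enter S phase, and they differed from each other. Pes1 was at 9.71, 9.72 and 9.76 in control and at 10.04, 9.98 and 10.12 in starved cells (0.32 ± 0.06, limma adjusted p = 0.00362). Wdr12 was at 8.46, 8.46 and 8.51 against 8.80, 8.77 and 8.74 (0.29 ± 0.05, limma adjusted p = 0.00303). Bop1 was at 8.32, 8.32 and 8.37 against 8.23, 8.23 and 8.31 and did not pass (-0.08 ± 0.05). The rise of Pes1 turned with the probe set: its dimmer one fell by 0.92 ± 0.08, and the mean of both fell by 0.30 (limma adjusted p = 0.00316). Averaged over its probe sets, Wdr12 did not pass (0.05, limma adjusted p = 0.535), where the second one lay under 5 in both groups.

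Noc2l, which in yeast forms a complex with Noc3l in pre-60S assembly, rose by 0.28 ± 0.05 (limma adjusted p = 0.00347), and Noc3l differed by -0.12 ± 0.05 without passing. The arrays of both genes did not overlap between the groups. The helicase gene Ddx56 (0.15 ± 0.06) and Ebna1bp2 (0.08 ± 0.06) did not pass. Brix1, which acts in the early large subunit, did not pass in its brightest probe set, at 9.73, 9.84 and 9.92 against 10.03, 9.94 and 10.02 (0.17 ± 0.07), whereas its other probe set fell by 1.95 ± 0.07 from 7.60 to 5.65, the largest difference of any probe set of these genes. The mean of both fell by 0.89 (limma adjusted p = 1.81e-05), so Brix1 has no settled direction.

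**Figure D4:**
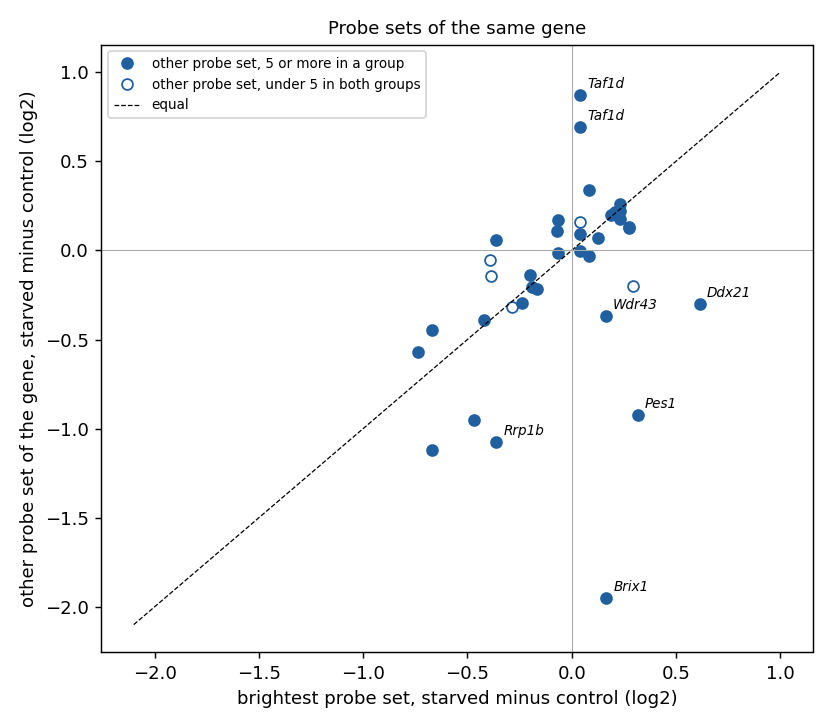
Difference of starved minus control (log2) in each other probe set of a gene, against that in its brightest probe set, for 28 genes with more than 1; open points lie under a level of 5 in both groups. Of 37 points 7 are off the line of equality by 0.5 or more, among them Brix1 at -1.95 and Taf1d at 0.87. The median absolute difference of the 47 genes was 0.28, so probe sets nearer the line can still disagree.

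Disagreement between probe sets was thus a limit of its own. Of the 47 genes 19 had a single probe set, 8 were called alike in all their probe sets and 5 in none of them. In 8 the brightest was called but not all of the others, in 5 (Brix1, Polr1e, Taf1d, Ubtf and Wdr43) only another was called, and in 2 (Ddx21 and Pes1) another was called in the opposite direction. Which transcript ends the probe sets reach was not analysed here. 16 of the 31 calls held in every alternative setting that gave them a value: the falls of Rrs1, Tsr1, Nip7, Gnl3, Nolc1, Gar1, Bysl, Polr1b, Nop10, Heatr1, Rrp1b and Ltv1, and the rises of Nop14, Utp20, Noc2l and Noc4l. For 14 of them that was 17 settings and for Tsr1 and Gar1 16, since each of these 2 genes has a single probe set that can match several transcripts and gave no value without such probe sets.

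The genes did not all move in the same direction, but their average separated the groups. Relative to each gene's own mean, the 47 genes averaged 0.03, 0.05 and 0.10 on control replicates 1, 2 and 3 and -0.05, -0.09 and -0.03 on starved replicates 1, 2 and 3. The highest control array was replicate 3 and the lowest starved array replicate 2, but no starved array reached the level of a control array in this average. Box H/ACA genes had the widest gap (0.16, 0.14 and 0.21 in control, -0.17, -0.21 and -0.13 in starved cells). The nucleolar genes with several roles separated the other way (-0.05, -0.07 and -0.03 in control, 0.02, 0.02 and 0.11 in starved cells). Other genes of the pathway, 104 in number, did not separate (-0.016, 0.013 and 0.058 in control, -0.004, -0.043 and -0.006 in starved cells). The average over all genes lay between -0.009 and 0.006 on every array.

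**Figure D5:**
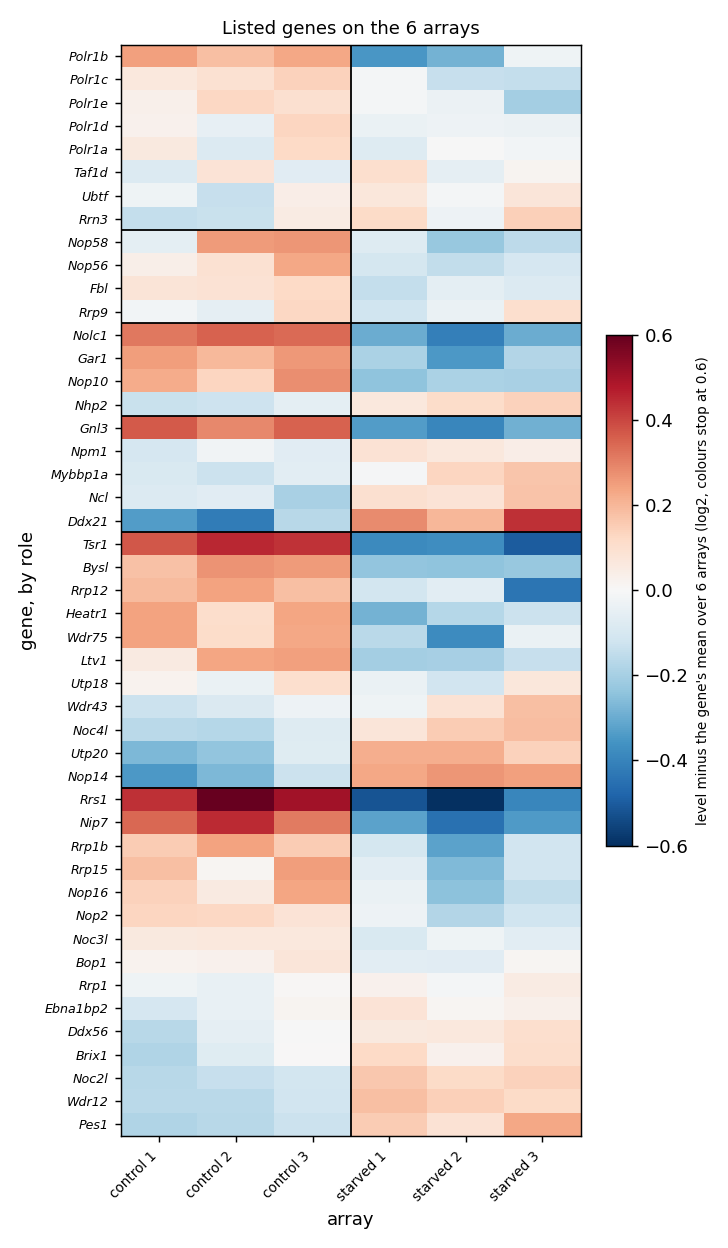
Level of the 47 genes on the 6 arrays after each gene's own average was subtracted (log2; colours stop at 0.6), in blocks by role from RNA polymerase I at the top to large subunit assembly at the bottom. Within most blocks genes that are higher in control (red on the left) stand beside genes that are higher in starved cells (red on the right), and Rrs1, Nip7 and Tsr1 have the strongest contrast.

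Other genes of the process, listed by their known roles, were called lower more often than higher. Of 104 measured of 131 listed, 28 fell, 19 rose and 57 did not pass (26.9% lower and 18.3% higher, against 20.1% and 20.8% of all genes), with a median difference of -0.06. Their median level was 8.22, against 7.25 over all genes. Among all genes above the median level 28.4% were called lower and 31.6% higher. The share of the 104 called lower thus did not exceed that of brighter genes. Small subunit factors fell in 11 and rose in 3 of 35, large subunit factors fell in 13 and rose in 9 of 38, snoRNP assembly genes fell in 3 and rose in 0 of 7, and further polymerase I genes fell in 1 and rose in 2 of 9. Genes listed for the trimming of ribosomal RNA, most of them for exosome subunits and not all for nucleases, included 5 that rose and 0 that fell among 15 (median 0.10). The 33.3% that rose was near the 31.6% called higher among all genes above the median level. Besides Rpf2, the largest falls were those of Mphosph10, a protein of the U3 particle (-0.83 ± 0.09), Tgs1, which makes the cap of small nuclear and nucleolar RNAs (-0.77 ± 0.06), the methyltransferase gene Rrp8 (-0.68 ± 0.07) and the large subunit factor gene Ppan (-0.66 ± 0.08). The largest rises were those of Sbds, which acts in the last step of large subunit maturation (0.93 ± 0.06), Sdad1 (0.74 ± 0.07), the exonuclease gene Xrn2 (0.64 ± 0.07), Taf1b and Pa2g4 (0.56 ± 0.07). These genes were picked among called genes whose groups did not overlap, so their lack of overlap is not a result.

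Myc, which encodes a transcription factor that activates ribosome biogenesis genes, was at 8.52, 8.52 and 8.48 in control and at 8.35, 8.23 and 8.27 in starved cells. This small fall of 0.22 ± 0.06 (limma adjusted p = 0.0145) was lost without starved replicate 2 (limma adjusted p = 0.0553) or starved replicate 3 (0.0504). The arrays also carry control probe sets for 18S ribosomal RNA, the product of the pathway. Their levels were 13.2 ± 0.14 (SD, n = 3) in control and 13.1 ± 0.08 in starved cells for the 3 prime part, a difference of -0.11 (exact permutation p = 0.40, two-sided). The middle and 5 prime parts differed by -0.02 and -0.04 (exact permutation p = 0.80 and 0.50), and the groups overlapped in all 3. These probe sets read mature ribosomal RNA, which is long-lived, in cRNA that may hold little of it, and they give no rate of synthesis.

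Several of these genes also carry small nucleolar RNA genes within their span, a feature that the choice of genes did not use. By the RefSeq annotation of GRCm38.p6, 7 of the 47 (14.9%) span at least 1 snoRNA gene on either strand, against 1.79% of 12377 measured genes with a position. They are Taf1d with 6, Nop56 with 5, Nop58 with 4, Gnl3 and Wdr43 with 3 each, Ncl with 2 (Snora75 and Snord82) and Tsr1 with 1 (Snord91a). Of these hosts 4 fell (Nop56, Nop58, Gnl3 and Tsr1), 1 rose (Ncl) and 2 did not pass in their brightest probe set. Of all 47 genes 44.7% fell and 21.3% rose, and over all genes 20.1% and 20.8%. Shares called among the 222 measured genes that span a snoRNA gene were not taken, so the split is a description only. The arrays measured the host transcripts, not the small RNAs.

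Promoters were examined because genes of this process moved together in part. RefSeq promoter sequences (GRCm38.p6) were matched for 42 of the 47 genes, and the 250 bases before each start were searched on both strands for 5 short motifs. The E-box CACGTG, which Myc can bind, was found in 3 of 42 genes (7.14%: Nop2, Rrn3 and Utp18) and in 9.19% of 9887 measured genes with a promoter. The ETS-type motif CCGGAAG was found in 10 of 42 (23.8%) and in 12.9% of measured genes. It was in 7 of the 18 genes that fell and 1 of the 10 that rose. Of the 14 that did not pass, 2 held it. The share among all measured genes that fell or rose was not taken, so a link with direction cannot be read from this split. GGGCGG, the GC box, was found in 69.0% against 57.0%, and TATAAA in 2.38% (Pes1 alone) against 10.7%. AAGATGGC was found in 0 of 42, against 2.12%. Over all 32851 promoters of the table, which include non-coding genes, the shares in the same order were 6.02%, 6.91%, 32.7%, 12.4% and 1.56%.

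Below stand 5 of these stretches, 5′ to 3′ in the direction of the gene and ending at the base before its start, to show where the ETS-type letters lie in 4 genes that fell and in Nhp2, the 1 gene that rose and holds them. Capitals mark CCGGAAG or its reverse complement, and in Nop2 also CACGTG. Nip7 is at chr8:107056627-107056876 on the plus strand, Nolc1 at chr19:46075597-46075846 on the plus strand, Gar1 at chr3:129831397-129831646 on the minus strand, Nop2 at chr6:125131633-125131882 on the plus strand and Nhp2 at chr11:51619523-51619772 on the plus strand.
Nip7: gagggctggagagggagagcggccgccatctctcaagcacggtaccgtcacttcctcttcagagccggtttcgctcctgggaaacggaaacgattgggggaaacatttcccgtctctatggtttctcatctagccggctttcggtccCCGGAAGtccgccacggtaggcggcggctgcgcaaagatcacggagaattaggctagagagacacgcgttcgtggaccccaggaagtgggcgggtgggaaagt
Nolc1: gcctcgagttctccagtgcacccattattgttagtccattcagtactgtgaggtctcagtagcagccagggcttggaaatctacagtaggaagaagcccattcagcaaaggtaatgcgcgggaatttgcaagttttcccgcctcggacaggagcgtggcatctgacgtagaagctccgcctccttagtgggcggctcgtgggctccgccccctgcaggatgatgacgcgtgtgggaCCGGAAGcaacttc
Gar1: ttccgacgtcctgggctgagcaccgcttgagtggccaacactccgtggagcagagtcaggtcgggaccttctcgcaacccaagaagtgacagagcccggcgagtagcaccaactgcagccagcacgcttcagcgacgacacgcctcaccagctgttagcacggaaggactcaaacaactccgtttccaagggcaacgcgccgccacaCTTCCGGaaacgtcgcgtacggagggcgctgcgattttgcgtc
Nop2: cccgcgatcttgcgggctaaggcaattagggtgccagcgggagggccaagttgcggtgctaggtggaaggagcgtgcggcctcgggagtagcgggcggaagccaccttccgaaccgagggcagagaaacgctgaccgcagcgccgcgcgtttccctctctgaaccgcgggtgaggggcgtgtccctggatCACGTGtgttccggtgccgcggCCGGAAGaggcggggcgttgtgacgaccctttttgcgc
Nhp2: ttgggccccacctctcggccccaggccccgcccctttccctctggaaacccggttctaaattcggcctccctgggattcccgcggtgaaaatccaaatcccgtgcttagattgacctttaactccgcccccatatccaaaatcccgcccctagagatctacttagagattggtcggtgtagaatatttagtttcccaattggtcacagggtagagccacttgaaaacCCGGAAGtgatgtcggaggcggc

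In these stretches the first base of the ETS-type motif lay 103 bases before the start in Nip7, 14 in Nolc1, 43 in Gar1, 38 in Nop2 and 23 in Nhp2, and G and C made up 54.8% to 67.6% of the bases. The letters are a description of the sequence. They do not show that a factor binds there, and their part in the differences was not tested.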

How the data were processed

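Total RNA was labelled as biotinylated cRNA and hybridised to 6 Affymetrix mouse arrays. The deposited values are log2 levels. Per the submitters' processing notes, the authors used RMA from the affy package, with no version recorded here. RMA includes quantile normalization, which would hide a shift of most transcripts in 1 direction. The table held 22690 probe sets, of which 64 Affymetrix controls were set aside and 22626 tested. By the platform annotation 20380 of them had 1 gene name, 691 several and 1555 none here. Precision is limited by the number of arrays.

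Groups followed the titles. The comparison of starved with control used limma 3.58.1 (lmFit and eBayes in R 4.3.3, two-sided, no covariate), and calls were made at 0.05 after Benjamini-Hochberg adjustment over the probe sets tested. Each gene was represented by its brightest probe set, and Polr1h was matched by its older symbol. The fit was tested on simulated data with independent noise, in which only a small part of the probe sets was shifted. That test does not check the calls under a change as wide as the one seen here. The genes, role groups, pathway list and tests were chosen with earlier results of these data known. Every gene of the 48 could be named. Values per array were given for up to 3 called genes of largest change per role and for polymerase I genes; values of further genes given per array were added after they were seen. Of the other pathway genes, the 5 largest rises and falls among called genes without overlap between the groups were named. A fixed set of polymerase I genes was named as well. Polr1f and Polr1g of that set were not analysed here. Figures used matplotlib 3.10.9 in Python 3.11.15.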

Additional observations from a re-analysis of the deposited data

How the results depend on the processing

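Of 31 genes called, 14 held under all 17 alternatives, and Tsr1 and Gar1 under the 16 that gave them a value. The count of 21 lower genes fell to 12 at a threshold of 0.01, where the count of 10 higher genes was 7 and that of other pathway genes called higher fell from 19 to 12. Leaving out each array in turn gave 7 to 11 higher and 15 to 18 lower genes, and among other pathway genes 17 to 21 higher and 22 to 28 lower. Over all settings the ranges were 7 to 13 higher and 12 to 23 lower. The counts over all genes moved too. From 2574 higher and 2485 lower, they ranged over all settings from 1907 to 2855 higher and from 1729 to 2714 lower. With each array left out they were 2222 to 2486 higher and 2111 to 2269 lower. When the probe sets of a gene were averaged, Pes1 turned to -0.30 and Brix1 to -0.89, because their dimmer probe sets fell. Rpf2 turned to 0.024 when probe sets matching several transcripts were left out, since another probe set then stood for it. With the replicate number as a block 9 genes rose and 18 fell, and Polr1c (adjusted p = 0.0733), Fbl (0.0558), Nop58 (0.0638) and Mybbp1a (0.0747) lost their calls in limma's test. No pairing by number was seen: deviations of same-numbered arrays correlated at -0.09, 0.01 and -0.01, and those of differently numbered arrays at -0.08 to 0.09. This does not settle whether arrays were handled in pairs. The differences of 18S probe sets ranged from -0.18 to 0.03 over normalizations and left-out arrays, alternatives added after seeing the data. Dim levels near 5 (Rrp12, Polr1e, Polr1b) are less certain.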
